A study of Mus musculus with 6 samples.

Results

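Ependymal cells line the walls of the brain ventricles, and bundles of motile cilia on their surface move the cerebrospinal fluid. A motile cilium is built on an axoneme, a ring of doublet microtubules around a central pair, in which dynein arms pull neighboring doublets past each other while radial spokes and a nexin-dynein regulatory complex coordinate the beat. The gene program for this structure is switched on by FOXJ1 and by transcription factors of the RFX family, and in adult brain its transcripts come largely from the ependyma, so that they serve as markers of ventricular wall in dissected tissue. The striatum lies against the lateral ventricle, whose wall also carries the subventricular zone, a layer of neural stem cells and newborn neurons, and whose lumen holds the choroid plexus, the secretory tissue that makes transthyretin (Ttr).

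The 10 genes described here are Foxj1, Dnah11, Dynlrb2, Rsph1, Ccdc153, Cfap126, Ak7, Pifo, Tmem212 and Rarres2. They were chosen by symbol as genes of the ependymal motile cilia or of the cells that carry them, and all 10 were found, by Ensembl identifier in the GENCODE M21 annotation, among the 46078 genes of the deposited table and among the 17605 that were tested, whose mean over the libraries reached 10 normalized read counts. The study sequenced RNA from the striatum of 3 transgenic (TG) mice that mildly overexpress EGFP-tagged Shank3, a scaffold protein of excitatory synapses, and of 3 wild-type (WT) mice. All were male C57BL/6J mice aged 12 weeks, with 1 library per mouse. The promoter of the transgene is not given in the sources used here, and the striatum was taken out of each brain with the help of a brain matrix. The libraries held between 27689589 and 36647626 reads on genes. Shank3, the overexpressed gene, had between 26043.6 and 29890.9 normalized read counts in the TG libraries and between 12918.4 and 13865.2 in the WT libraries, in the direction the labels give. A normalized read count is the read count of a gene divided by the size factor of its library.

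All 10 genes were detected in every library, at low levels. Their mean RPKM over the 6 libraries, that is, reads scaled to exon length and library size, ran from 0.184 for Dnah11 to 4.31 for Foxj1, with Rsph1 (2.77), Tmem212 (2.21), Ccdc153 (1.87) and Dynlrb2 (1.79) between them. In bulk tissue such as this, fewer ependymal cells in a piece and less RNA per cell cannot be told apart.

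The promoters of the genes were searched for motifs of the regulators of the ciliary program. RFX factors bind the X-box, and FOXJ1 is a forkhead factor. Promoter windows, from 250 bases before to 50 bases after the RefSeq transcription start on GRCm38.p6, could be matched for 7 of the 10 genes, and 4 of them are shown over the 250 bases before the start, because they hold the motifs that were searched. Capitals mark matches on either strand to a loosened X-box (GTNNCC, 1 to 4 further bases, GNAAC), to its half-site GTTGCC, which can lie inside an X-box, and to the forkhead motif TGTTTAC. These letters are looser than an X-box that asks for A or G (R) in GTNRCC and in RGNAAC.
Dynlrb2, chr8:116504765-116505014, plus strand: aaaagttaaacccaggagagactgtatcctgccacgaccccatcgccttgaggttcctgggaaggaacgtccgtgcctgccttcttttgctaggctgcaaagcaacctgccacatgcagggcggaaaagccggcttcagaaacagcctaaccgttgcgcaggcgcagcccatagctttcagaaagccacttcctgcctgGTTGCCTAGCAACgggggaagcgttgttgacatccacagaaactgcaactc
Ccdc153, chr9:44240427-44240676, plus strand: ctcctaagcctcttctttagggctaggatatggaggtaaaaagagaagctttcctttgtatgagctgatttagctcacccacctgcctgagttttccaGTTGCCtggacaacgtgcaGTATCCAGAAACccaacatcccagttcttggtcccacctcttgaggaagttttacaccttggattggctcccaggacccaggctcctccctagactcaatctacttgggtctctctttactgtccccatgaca
Pifo, chr3:106001498-106001747, minus strand, the start inside the gene: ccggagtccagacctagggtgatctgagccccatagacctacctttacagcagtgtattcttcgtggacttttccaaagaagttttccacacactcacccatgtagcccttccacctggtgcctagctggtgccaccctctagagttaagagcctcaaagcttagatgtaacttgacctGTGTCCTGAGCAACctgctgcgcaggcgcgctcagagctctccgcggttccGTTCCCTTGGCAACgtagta
Ak7, chr12:105705732-105705981, plus strand: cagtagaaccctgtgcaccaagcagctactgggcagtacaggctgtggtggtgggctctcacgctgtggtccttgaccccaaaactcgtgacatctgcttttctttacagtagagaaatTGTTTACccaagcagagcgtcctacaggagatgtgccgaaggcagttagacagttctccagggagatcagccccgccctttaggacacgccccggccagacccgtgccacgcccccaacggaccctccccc
The X-box of Dynlrb2, GTTGCCTAGCAAC, lay at -51 to -39 from the start. That of Ccdc153, GTATCCAGAAAC, lay at -133 to -122, and Pifo had 1 at -71 to -58 and 1 at -20 to -7. The match of Dynlrb2 and, read on the other strand, that of Pifo at -20 to -7 also fit the stricter letters. Those of Ccdc153 and of Pifo at -71 to -58 do not. Ak7 held no X-box and a forkhead match at -131 to -125. No match to these letters was found in the windows of Tmem212, Dnah11 and Cfap126 or in the outer start of Pifo. A match to the loosened X-box was found in 3 of the 10 windows of these genes, in 29 of 84 windows of a wider list of motile cilia genes described further on (34.52%) and in 5.253% of all 32817 promoters. Windows with the stricter letters were not counted. For the forkhead motif the shares were 6 of 84 (7.143%) and 3.647%. These are matches of letters and not measured binding.

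**Figure D1:**
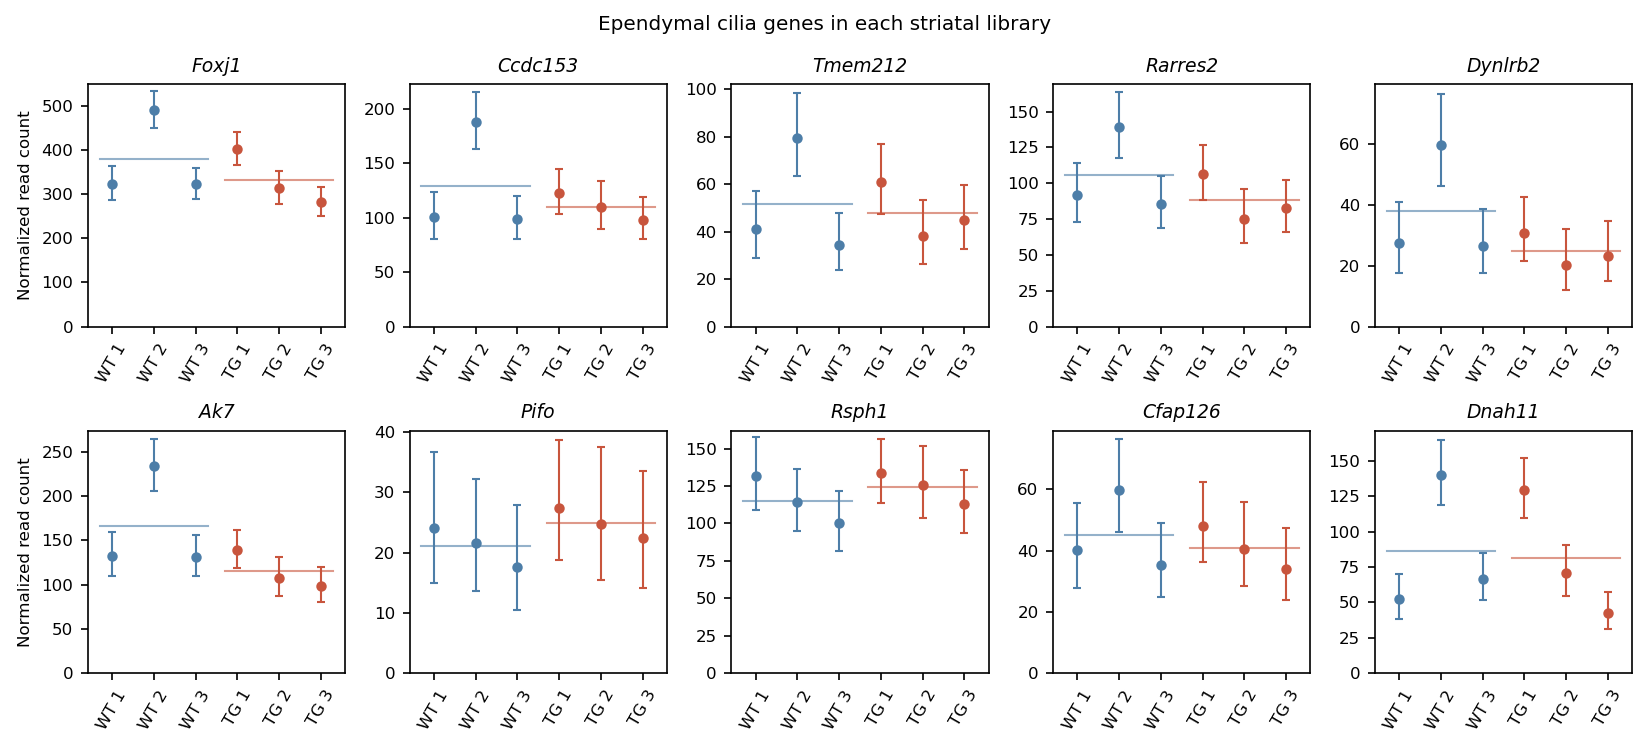
Normalized read count (vertical axes, from 0) of each of the 10 genes in the 3 WT libraries (blue) and the 3 TG libraries (red); points are the values, bars the 95% counting intervals and horizontal lines the group means. In 8 of the 10 genes WT replicate 2 stands highest, while Pifo and Rsph1 are highest in TG replicate 1.

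Foxj1 encodes the transcription factor that switches on the program of motile cilia (ENSMUSG00000034227, GRCm38 chr11:116330704-116335399). Replicates 1, 2 and 3 had 402, 314 and 282 normalized read counts for TG and 324, 491 and 323 for WT. WT replicate 2 was the highest library and TG replicate 1 the next, and the other 4 libraries lay within the range of 282 to 324. The means were 333 ± 62.3 for TG and 379 ± 96.7 for WT (SD, n = 3), so that the log2 fold change of TG over WT was -0.18 (standard error, SE, 0.17, limma adjusted P = 0.971).

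Dnah11 and Dynlrb2 encode dynein subunits. Dnah11, a heavy chain of the outer dynein arm (ENSMUSG00000018581, chr12:117877982-118199043), had 130, 70.8 and 42.8 in TG replicates 1 to 3 and 52.6, 140 and 66.8 in WT replicates 1 to 3. Both genotypes had 1 high library, TG replicate 1 and WT replicate 2, and the groups overlapped over nearly their whole range. The means were 81.1 ± 44.3 and 86.6 ± 47.1 (SD, n = 3), with a log2 fold change of -0.11 (SE 0.40, limma adjusted P = 0.989). Dynlrb2, a light chain of the roadblock type (ENSMUSG00000034467, chr8:116504974-116515915), had 30.9, 20.2 and 23.4 for TG and 27.5, 59.9 and 26.5 for WT. The single high library was WT replicate 2, and TG replicate 1 exceeded the other WT libraries. Its log2 fold change, -0.51 (SE 0.32, limma adjusted P = 0.971), was the largest of the 10 in size. Its paralog Dynlrb1, a light chain of the general cytoplasmic dynein, lay between 2085 and 2292 in all 6 libraries, with a log2 fold change of -0.03.

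Rsph1, Ccdc153 and Cfap126 belong to the axoneme and its base. Rsph1, a protein of the radial spoke head (ENSMUSG00000024033, chr17:31255019-31277383), had 134, 126 and 113 for TG and 132, 114 and 100 for WT. No library stood apart in Rsph1, and its SD within the genotypes was 0.16 on the log2 scale, the smallest of the 10. Its log2 fold change was 0.11 (SE 0.14, limma adjusted P = 0.971). Ccdc153, a coiled-coil protein that marks ependymal cells (ENSMUSG00000070306, chr9:44240676-44247306), had 123, 110 and 98.3 for TG and 101, 188 and 99.2 for WT. Here WT replicate 2 stood alone, and the other 5 libraries ran from 98.3 to 123. Cfap126, which takes part in the positioning of basal bodies (ENSMUSG00000026649, chr1:171113918-171126967), had 48.1, 40.5 and 34.1 for TG and 40.1, 59.9 and 35.3 for WT, highest again in WT replicate 2 and next in TG replicate 1. The log2 fold changes were -0.17 for Ccdc153 (SE 0.22) and -0.12 for Cfap126 (SE 0.23).

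Ak7 encodes an adenylate kinase of the axoneme, which interconverts adenine nucleotides (ENSMUSG00000041323, chr12:105705976-105782447). It had 139, 108 and 98.3 for TG and 133, 234 and 132 for WT, so that WT replicates 1 and 3 lay between TG replicate 1 and the other TG libraries. The means were 115 ± 21.3 and 166 ± 58.7 (SD, n = 3). Its log2 fold change of -0.49 (SE 0.22) had an unadjusted P of 0.0491 and an adjusted P of 0.971 by limma, and it was the single gene of the 10 with an unadjusted P under 0.05, a share to be read against 4.31% of all genes tested. The adenylate kinase genes Ak1 to Ak6 had log2 fold changes between -0.05 and 0.06, and Ak8 and Ak9, on the wider list of motile cilia genes, had 0.11 and -0.12.

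The remaining 3 genes are not structural parts of the axoneme. Pifo, whose product is found at the base of cilia (ENSMUSG00000010136, chr3:105996957-106014646), had 27.5, 24.7 and 22.4 for TG and 24.0, 21.5 and 17.7 for WT. Its values ran within a narrow range in which 1 read is worth about 1 normalized count, and no library stood apart. Tmem212, a membrane protein used as an ependymal marker (ENSMUSG00000043164, chr3:27866066-27896368), had 60.9, 38.2 and 44.8 for TG and 41.2, 79.5 and 34.4 for WT. Rarres2 encodes chemerin, a secreted chemoattractant (ENSMUSG00000009281, chr6:48569696-48572789), and had 106, 75.3 and 82.8 for TG and 91.6, 139 and 85.4 for WT. In Tmem212 and Rarres2 the order of the top libraries was that of Foxj1, with WT replicate 2 first and TG replicate 1 next. The log2 fold changes were 0.23 for Pifo (SE 0.23), -0.04 for Tmem212 (SE 0.30) and -0.24 for Rarres2 (SE 0.20). Rarres2 shares 892 of its 2656 exon bases with Lrrc61 on the opposite strand, and Dnah11 shares 642 of 14458 with Cdca7l. The library kit does not mark strand, so reads in these stretches cannot be assigned to either gene of the pair.

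The comparison of TG and WT striatum asked whether overexpression of Shank3 goes with a change in these transcripts. None was called: 0 of the 10 genes passed an adjusted P of 0.05 by limma, where 0.00568% of all genes did, and 0 passed by edgeR's quasi-likelihood test, limma-voom or DESeq2 (0.0398% of all genes). The adjusted P values by limma ran from 0.971 to 0.994. Of the 10 genes, 2 (Pifo and Rsph1) were higher and 8 lower in TG mice, where 50.8% of all genes were lower, and their median log2 fold change was -0.14 against -0.0018 over all genes tested. For every gene the 3 TG values overlapped the 3 WT values, whereas 10.1% of all genes had no overlap. The exact permutation test of each gene's group means (two-sided), which cannot go below 0.1 with 3 mice against 3, gave P values between 0.2 and 0.9. The genes were more variable between mice of the same genotype than most, with a median SD of 0.35 on the log2 scale against 0.11 over all genes. That comparison was not matched for level, and counting error widens the SD of low genes. A difference larger than its own SD was seen in 3 of the 10 genes (Dynlrb2, Ak7 and Pifo). Standard errors ran from 0.14 to 0.40, and differences of the size observed were not detectable with 3 mice of each genotype.

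The direction of the difference depended on WT replicate 2. Without it 7 of the 10 genes were higher and 3 lower in TG mice, and the median log2 fold change moved from -0.14 to 0.11. Foxj1 went from -0.18 to 0.025, Ccdc153 from -0.17 to 0.14, Tmem212 from -0.04 to 0.32, Cfap126 from -0.12 to 0.10 and Dnah11 from -0.11 to 0.30. Dynlrb2 (-0.14), Ak7 (-0.21) and Rarres2 (-0.020) remained lower. Without TG replicate 1 the median was -0.28 instead, and Foxj1, Rarres2, Dynlrb2 and Ak7 were then lower in both TG libraries than in all 3 WT libraries, a pattern that 13% of all genes showed in the same setting. Pifo was higher with no overlap when TG replicate 3 or WT replicate 1 was left out (17% and 20.1% of all genes in either direction). Without both TG replicate 1 and WT replicate 2, which was tried once the values were known, the median was -0.06, and 0.0114% of all genes passed the adjusted threshold. Of the 10 genes, 0 passed the adjusted threshold in any of these fits.

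**Figure D2:**
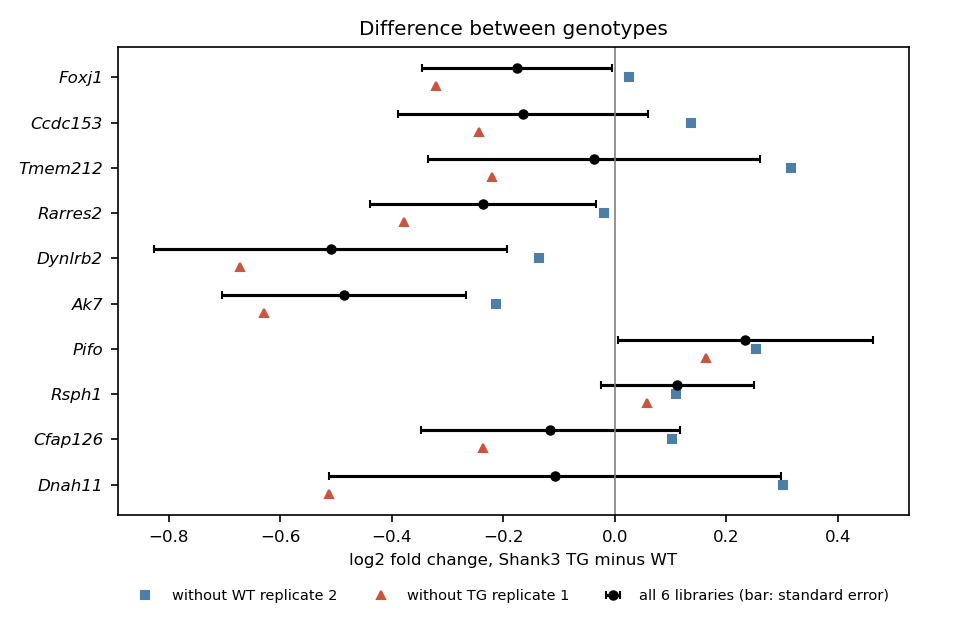
Log2 fold change of TG over WT (horizontal axis) for each of the 10 genes, with all 6 libraries (black, bar: standard error), without WT replicate 2 (blue squares) and without TG replicate 1 (red triangles). With all libraries 8 points lie below 0, and without WT replicate 2 only 3 do.

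In each of the 10 genes the range within the WT group exceeded the difference between the group means. In 8 of them WT replicate 2 was the highest of the 6 libraries and TG replicate 1 the next, an order that 3.39% of all genes showed. The other 2, Pifo and Rsph1, were highest in TG replicate 1, as were 17.8% of all genes. WT replicate 2 was the highest library in 13.9% of all genes and in 18.8% of the 5967 genes whose mean lay in the range of the 10. In these 8 genes WT replicate 2 exceeded the mean of WT replicates 1 and 3 between 1.52-fold (Foxj1, 95% counting interval 1.34 to 1.70) and 2.35-fold (Dnah11, 1.80 to 2.98), with 1.77-fold in Ak7 (1.47 to 2.11) and 1.88-fold in Ccdc153 (1.53 to 2.29). A ratio above 1.3 was seen in 5.92% of all genes and in 9.25% of the 5967 genes in that range of means. For Pifo the ratio was 1.03 (0.592 to 1.78) and for Rsph1 0.985 (0.786 to 1.24). The interval of Rsph1 lies below the ratios of Foxj1 and the 7 other genes, whereas that of Pifo, with few reads, reaches the ratios of 4 of the 8 (Foxj1, Rarres2, Cfap126 and Ak7).

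TG replicate 1 was the highest of the TG libraries in 10 of 10 genes, as it was in 36% of all genes. Its ratio to the mean of TG replicates 2 and 3 ran from 1.12 in Rsph1 to 2.28 in Dnah11 (1.79 to 2.99), and the counting interval lay above 1 in 5 of the 10. The share of all genes with such an interval was not counted. Averaged over the 10 genes, the centered log2 values were 0.55 in WT replicate 2 and 0.23 in TG replicate 1, and between -0.28 and -0.11 in the other 4 libraries. Each of these libraries is 1 mouse, so the ratios carry counting error only and no replicate of the mouse.

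**Figure D3:**
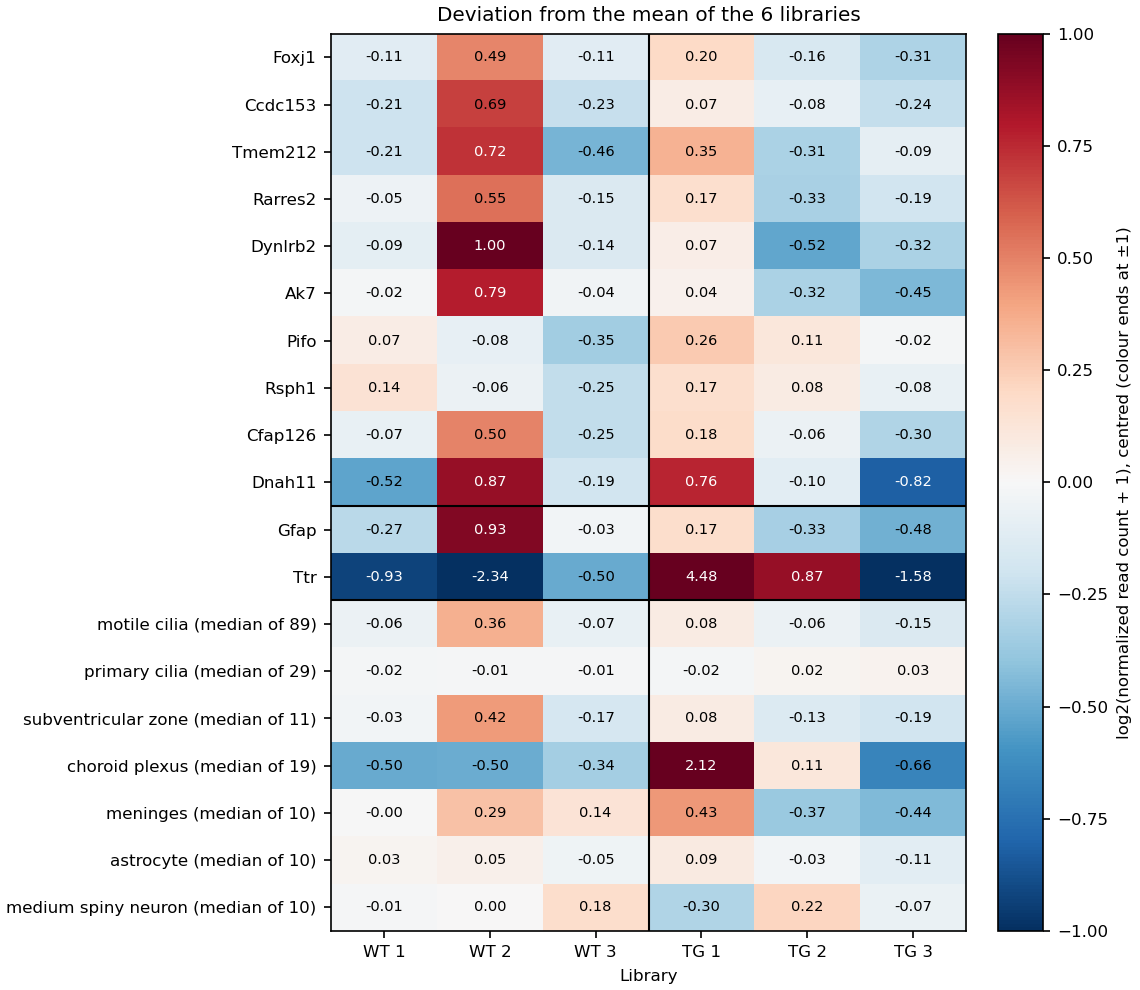
Deviation of log2(normalized read count + 1) in each library (columns) from the mean of the 6 libraries, for the 10 genes, for Gfap and Ttr, and as the median over marker lists (rows). WT replicate 2 is high in 8 of the 10 genes, in Gfap and in the motile cilia and subventricular zone lists, whereas Ttr and the choroid plexus list are high in TG replicate 1.

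Whether the genes followed the ventricular transcript Ttr was asked across the 6 libraries. Ttr had 13701, 1122 and 204 normalized read counts in TG replicates 1 to 3 and 322, 120 and 432 in WT replicates 1 to 3. It was highest in TG replicate 1 and lowest in WT replicate 2, the library in which 8 of the 10 genes were highest. The mean of the other choroid plexus markers had a Pearson's r of 0.970 and a Spearman's rho of 0.829 with Ttr (exact permutation P = 0.0083 and 0.0583), and r was 0.873 without TG replicate 1 and 0.558 over the 4 libraries left without TG replicates 1 and 2. For their sum r was 0.907, and 0.516 without TG replicate 1. Of the 19 markers tested, Ttr included, 17 were highest in TG replicate 1. Of the 10 ciliary genes, 0 had a positive Spearman correlation with Ttr at an exact permutation P under 0.05, against 0.943% of all genes, and 0 had a positive Pearson correlation at that level, against 1.7%. All adjusted P values over the genes tested were 1. With the sum of the other choroid plexus markers in place of Ttr, all 10 correlations were positive, with a median rho of 0.514 against -0.029 over all genes, and 0 had an exact permutation P under 0.05 by Spearman (1.31% of all genes) or by Pearson (2.07%). The highest was that of Dnah11, with r = 0.716 and rho = 0.829 (exact permutation P = 0.0917 and 0.0583). Car12 alone gave 1992 normalized read counts in WT replicate 2, its highest library, where all 20 markers with Ttr summed to 3044. With the mean of the markers instead of their sum, 9 Spearman correlations were positive (median rho 0.371) and 8 Pearson correlations (median r 0.268). Again 0 had an exact permutation P under 0.05, by Spearman (1.18% of all genes) or Pearson (1.83%). With Ttr itself, Pifo had a Pearson's r of 0.628 (exact permutation P = 0.192) and a Spearman's rho of 0.657 (P = 0.175, n = 6), and Rsph1 an r of 0.554 (exact permutation P = 0.264) and a rho of 0.486 (P = 0.356). For Dnah11 r with Ttr was 0.376 (exact permutation P = 0.497) and rho 0.143 (P = 0.803). The other 7 genes had r between -0.281 (Dynlrb2) and 0.077 (Cfap126), with r = 0.076 and rho = -0.086 for Foxj1 (exact permutation P = 0.885 and 0.919). Without TG replicate 1 and WT replicate 2, the libraries farthest from the median of Ttr, r over the remaining 4 libraries ran from -0.678 (Rarres2) to 0.924 (Ccdc153). Without TG replicate 1 alone, r was negative in 8 genes, between -0.787 and -0.306, and positive in Pifo (0.217) and Rsph1 (0.243). With 1 library left out, a positive Spearman correlation with P under 0.05 appeared in 1 gene without WT replicate 2 (Dnah11) and in 1 without WT replicate 3 (Pifo), both by the exact permutation test. Such a P there needs the same order as Ttr in all libraries left, and the share of all genes in these settings was not counted. With Ttr as a covariate in the fit, 8 genes were lower in TG mice, with a median log2 fold change of -0.25 and a lowest adjusted P of 0.854 by limma.

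Other measures, of the ventricular wall and of astrocytes, were set beside the ciliary genes after the data were seen. The mean of 11 subventricular zone markers, among them Dcx of newborn neurons, Dlx1 of their precursors and Tubb3 of neurons, had a positive Pearson correlation with P under 0.05 in 8 of the 10 genes (all but Pifo and Rsph1), against 2.52% of all genes, and a positive Spearman correlation in 4, against 1.93%. Foxj1 had r = 0.971 and rho = 0.943 with it (exact permutation P = 0.0042 and 0.0167), Cfap126 r = 0.974 and rho = 0.943 (P = 0.0028 and 0.0167), and Pifo r = 0.184 and rho = 0.257 (P = 0.689 and 0.658). No adjusted P over all genes was below 0.774. Without TG replicate 1 and WT replicate 2, r over 4 libraries ran from 0.039 (Tmem212) to 0.738 (Cfap126), so the relation rests in large part on those libraries. Dcx had 2085 normalized read counts in WT replicate 2 and between 1264 and 1739 elsewhere, and 9 of the 11 markers were highest in WT replicate 2. Gfap, of astrocytes and of the stem cells of the subventricular zone, had 3431, 2424 and 2187 for TG and 2522, 5794 and 2991 for WT, and its Pearson correlation was positive with P under 0.05 in the same count of 8 genes, against 2.54% of all genes, with no adjusted P below 0.764. The mean of 10 astrocyte markers, with Gfap among them, gave 7 such Pearson correlations (3.08% of all genes) and 4 Spearman correlations (2.31%), with r = 0.975 and rho = 1 for Foxj1 (exact permutation P = 0.0014 and 0.0028) and no adjusted P below 0.611, so the likeness was not limited to markers of the ventricular wall. Markers of meninges (8 of 10 highest in TG replicate 1) gave 0 positive Pearson correlations with an exact permutation P under 0.05 (3.49% of all genes). They gave 2 such Spearman correlations (2.5%). All 10 meninges correlations were positive by Pearson and by Spearman, with medians of 0.642 and 0.743, against -0.0026 and -0.029 over all genes. The ranges of the summed levels overlapped between TG and WT for subventricular zone markers (13337 to 15120 and 13181 to 16672), for meninges (1489 to 2899 and 1910 to 2747), for astrocytes (146997 to 156194 and 146960 to 155697), for choroid plexus (2632 to 18535 and 2782 to 3238) and for medium spiny neurons, the main neurons of the striatum (123534 to 172888 and 149108 to 171967). Tubb3 alone gave 8443 to 9713 of the subventricular zone sums. By gene, 17 of 19 choroid plexus markers were higher in TG mice, 4 of them without overlap (5.06% of all genes). Lower in TG mice were 11 of 11 subventricular zone, 10 of 10 meninges, 6 of 10 astrocyte and 8 of 10 medium spiny neuron markers (50.8% of all genes). Several of these counts rested on 1 library. Without WT replicate 2, lower were 5 subventricular zone, 9 meninges, 5 astrocyte and 8 medium spiny neuron markers, and 18 choroid plexus markers were higher. Without TG replicate 1 the median log2 fold change went from 0.86 to 0.08 for choroid plexus and from -0.13 to 0.019 for medium spiny neurons. It was then -0.21 for subventricular zone, -0.53 for meninges and -0.097 for astrocyte markers. On these lists 0 genes were called by limma. The paper, with DESeq2 and P values corrected by fdrtool, reports Clic6 of the choroid plexus list as up-regulated. Here Clic6 was higher without overlap (log2 fold change 0.55, unadjusted P = 0.00696 by limma). The part of these tissues and cells in the values of the ciliary genes was not tested.

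A wider list of 94 motile cilia genes, with none of the 10 in it, showed how far the profile reached. Of these 92 were matched and 89 tested. By limma 0 were called, 4 had an unadjusted P under 0.05 (all lower in TG mice, where 2.33% of all genes were), 22 were higher and 67 lower, and the median log2 fold change was -0.08. The values of TG and WT mice did not overlap in 7 of the 89, 1 higher and 6 lower, against 5.06% of all genes higher and 5.05% lower. Without WT replicate 2, 53 were higher and 36 lower, and the median was 0.06. WT replicate 2 was the highest library for 57 of the 89 (64.0%, against 13.9% of all genes), and its median ratio to the other WT libraries was 1.28. In 29 genes of primary cilia and intraflagellar transport, the machinery that builds cilia of every kind and that neurons and glia also express, this ratio was 1.00, 3 were highest in WT replicate 2 (10.3%) and 0 exceeded 1.3. Kifap3, Kif3a and Kif3b, subunits of the transport motor kinesin-2, had ratios of 1.00, 1.03 and 1.02 and log2 fold changes of 0.10, 0.05 and 0.04.

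By role, the values of the motile cilia list were as follows, with no test of a difference between roles. The central pair had 8 of 9 genes highest in WT replicate 2, with a median ratio of 1.59. Hydin, a large protein of the central pair whose loss causes hydrocephalus in mice, had 91.8, 83.2 and 83.7 for TG and 104, 199 and 102 for WT, all 3 TG values below all WT values (log2 fold change -0.57, SE 0.23, adjusted P = 0.971 by limma). Spag17 also lay lower without overlap (-0.54), whereas Cfap54 (0.016) and Cfap46 (0.014) overlapped, the latter with a WT replicate 2 ratio of 1.73. In the inner dynein arm, WT replicate 2 was highest in 9 of 11 genes, Dnali1 had the lowest log2 fold change (-0.50) and Dnah3 -0.33, and the more abundant Dnah1 and Wdr78 had -0.015 and -0.07. In the outer arm and its docking complex 5 of 8 were highest there. Armc4 was lower without overlap (-0.73, SE 0.27, unadjusted P = 0.0201 by limma), Ccdc114 had -0.24, Ccdc151 0.05 and Dnal1 0.04. Dnal1, the single gene of the list that was higher without overlap, had between 3814 and 4074 normalized read counts in every library, a level far above Foxj1, with a WT replicate 2 ratio of 1.04.

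Proteins inside and along the doublet microtubules had 14 of 20 genes highest in WT replicate 2 (median ratio 1.40), among them Enkur (1.40) and Cfap65 (1.34), but not Cfap69 (1.01) or Tekt4 (1.02). In the nexin-dynein regulatory complex and the ruler that sets its spacing the count was 4 of 8. Ccdc40, of the ruler, was lower without overlap (-0.28, SE 0.12, unadjusted P = 0.0393 by limma), its partner Ccdc39 had 0.04, and Drc1 (-0.03) and Gas8 (-0.05) had ratios of 1.01 and 0.986. Radial spoke genes had 3 of 7, with Dnajb13 at 2.21 and Rsph9 and Rsph10b at 1.12 and 0.971, next to the 0.985 of Rsph1. Dynein arm assembly factors, which act in the cytoplasm, had 2 of 5 and a median ratio of 0.962, with Spag1 at 0.913, Lrrc6 at 0.962 and Dnaaf1 at 1.12. Among transcriptional regulators of the program 2 of 7 were highest in WT replicate 2. Rfx2 had 106, 123 and 144 for TG and 132, 189 and 142 for WT (log2 fold change -0.31), Rfx3 had between 1724 and 2159 in all libraries (0.09), and Trp73, which encodes a factor needed for ependymal cilia, had 52.3, 39.3 and 29.2 for TG and 19.5, 33.7 and 37.3 for WT (0.42). The remaining cilia-associated genes had 10 of 14, with Odf3b at 1.66, Fam183b at 1.22 and Iqub at 1.01. No role held a gene with an adjusted P under 0.05.

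**Figure D4:**
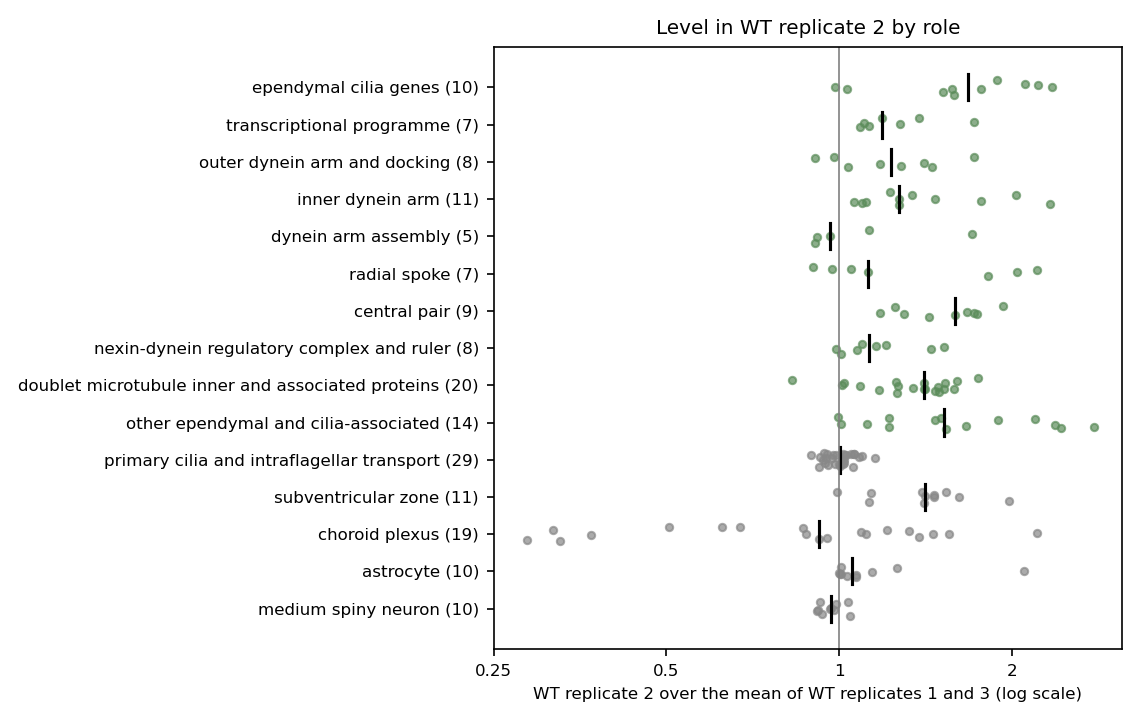
Normalized read count in WT replicate 2 over the mean of WT replicates 1 and 3 (horizontal axis, log scale) for each gene tested (points) and the median (black bar), by role in the cilium (green) and for other lists (grey), with the number of genes in parentheses. The 10 ependymal genes have a median of 1.68 and the central pair 1.59, while primary cilia genes center on 1.00.

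The genes most like the 10 were ranked among 14199 genes with a mean of at least 50, by Pearson's r of their log2 values with the mean centered profile of the 10 over the 6 libraries, which they share. The closest was Lrrc71 (r = 0.997), with 69.5, 52.8 and 50.6 normalized read counts for TG and 56.1, 81.4 and 52.0 for WT. Ifitm3 (0.993), Dnah9 (0.992), Lrrc23 (0.990), Mycbpap (0.986), Vim (0.985), 2410004P03Rik (0.985), Kctd4 (0.980), Gapdh (0.980) and Chtop (0.979) followed. Dnah9, a heavy chain of the outer dynein arm, and Lrrc23, of the radial spoke, are on the motile cilia list, and Vim encodes the intermediate filament vimentin. The ratio of WT replicate 2 to the other WT libraries was 2.05 in 2410004P03Rik, 2.04 in Lrrc23 and 1.51 in Vim, but 1.18 in Kctd4, 1.07 in Gapdh and 1.04 in Chtop, so that in the last 3 WT replicate 2 and TG replicate 1 were also the top libraries, with smaller differences. Of the 59 motile cilia genes ranked, 24 (40.7%) were among the 500 closest, as were 3.52% of all genes ranked. The median r was 0.667 for motile cilia genes, 0.891 for subventricular zone markers, -0.22 for primary cilia genes and -0.03 for all genes.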

How the data were processed

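RNA of the striatum was sequenced from 3 TG and 3 WT mice with the TruSeq RNA Sample Prep Kit v2, which does not mark strand, as 101-bp paired-end reads. The authors trimmed the reads (Trimmomatic 0.35), aligned them to GRCm38 (TopHat2 2.1.0) and used HTSeq to count reads on genes. The annotation release and strand setting of the counting are not given in the sources used here. The deposited values are a signal per gene, namely read counts that the authors scaled by size factors from DESeq2. Dividing each library by its smallest value above 0 returned whole reads for 100% of values (within 0.01). Of 46078 genes, 29430 had a read, and 45143 were matched to GENCODE M21. No library was a copy of another, since every pair differed by well over the counting error.

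Groups were tested with limma 3.58.1 (mean-variance trend) on log2(value + 1) in the 17605 genes whose mean reached 10, and P values were adjusted over all of them (Benjamini-Hochberg, threshold 0.05). This scale understates changes of low genes. On recovered reads, edgeR 4.0.16 (quasi-likelihood), DESeq2 1.42.0 and limma-voom were alternatives, and so were scaling by TMM or by library totals, filters at 0 and at a mean of 50, other pseudocounts (0.5 and 5), the replicate number as a block, Ttr as a covariate and each library left out. Correlations used all 720 pairings of the 6 libraries (two-sided exact permutation test) for 8 measures in all, and were adjusted over all genes. Ratios of libraries have exact (Clopper-Pearson) 95% intervals, which cover counting error only. P values of group differences are judged against the spread between mice, and those of correlations take the 6 libraries of both genotypes together. The fits and the correlations were tested on simulated data. Named genes besides the 10 are, per role, the 2 most abundant and the 2 with the smallest P, the 3 most abundant of each marker list, paralogs, Shank3, Ttr and the 10 most alike. Gfap, the genes that differ without overlap and Lrrc61 and Cdca7l were named after their values were seen. The 10 genes, the lists and these rules were chosen with earlier results of these data known. Promoters are from RefSeq. R was 4.3.3, scipy 1.17.1.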

Additional observations from a re-analysis of the deposited data

How the results depend on the processing

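The count of the 10 genes called, and that of the motile cilia list, was 0 in every setting run, with each library left out in turn as well. The replicate number as a block gave 0 calls, a median of -0.14 and a lowest adjusted P of 0.851 by limma. Mice of the same number correlated by 0.0474, 0.0163 and 0.0928 in their deviations from the group means, so the numbers were not taken as pairs. Under the scalings, filters, pseudocounts and other tools each gene kept its direction. With each library left out, the median log2 fold change ran from -0.29 to 0.11, and 5 genes changed sign: Foxj1 ran from -0.32 to 0.025, Ccdc153 from -0.32 to 0.14, Tmem212 from -0.28 to 0.32 (0.11 without TG replicate 2), Cfap126 from -0.27 to 0.10 (0.0048 without TG replicate 3) and Dnah11 from -0.51 to 0.30 (0.27 without TG replicate 3). Without both TG replicate 1 and WT replicate 2, Ccdc153 (0.06) and Tmem212 (0.13) were higher in TG mice. The count of genes without overlap ran from 0 to 4 with a library left out and was 4 without both, where fewer libraries make overlap rarer. The count following Ttr ran from 0 to 1. DESeq2 called 7 of all genes (0.0398%) and no filter gave 5, against 1 by limma. The mean of 4 of the 10 genes lay below 50 normalized read counts, where counting error is wide, and 6 passed that filter.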
